A study of Mus musculus with 6 samples.

Results

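Interleukins are secreted signalling proteins through which leukocytes and tissue cells such as the airway epithelium instruct each other, and each acts on cells that carry its receptor. Most interleukin receptors are pairs of chains, of which one binds the ligand and the other, often shared by several interleukins, passes the signal on through Janus kinases and STAT factors or, for the interleukin-1 and interleukin-17 receptors, through adaptor proteins. In the lung, the alarm signal IL-33 released by structural cells, its receptor on innate lymphoid cells, and the type 2 interleukins IL-4, IL-5, IL-9 and IL-13 are known for their part in allergic airway inflammation. The genes described here are those of the deposited count table whose symbol starts with Il and a digit and that had at least 10 counts in 3 or more libraries. Of 47069 genes in the table, 85 carried such a symbol and 55 of them met the count rule. All 55 were among the 17037 genes tested. They comprise 36 receptor chains, 2 of which are decoys, 15 ligands, 2 secreted antagonists, the enzyme gene Il4i1 and the antisense RNA Il1bos.

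The study asked how loss of Zpbp2, a gene next to the asthma-associated gene Ormdl3, affects the lung transcriptome and the circadian clock. Lungs were taken at ZT10, that is 10 h after lights on in a cycle of equal light and dark, from 3 adult WT mice (C57BL/6J, WT4 to WT6) and 3 adult KO mice (KO4 to KO6). The KO mice lacked the 5′ part of Zpbp2 in every cell from conception, on a C57BL/6J background, and both groups came from one colony, with no treatment. Each library held the RNA of the whole lung of 1 mouse, so that fewer cells of a type and less RNA per cell cannot be told apart.

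Library totals ranged from 19981428 to 46796908 counts, the largest being KO5, and 3 counts corresponded to 0.0629 to 0.148 CPM (counts scaled by library size with TMM factors), a floor that covers counting error only. Zpbp2 itself had 1, 2 and 2 counts in the WT lungs and 0 in each KO lung. The lung epithelial marker list (surfactant, club, type 1 and ciliated cell genes) summed to between 36688 and 56776 CPM in the 6 lungs. All 6 libraries held between 15033 and 47369 counts of Xist, and the 4 Y-linked genes inspected held 0 or 1 count except in KO5, where they held 2 to 9. KO5 also stood apart in lymphocyte markers, and values without it are given where they change a result.

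In the KO lungs 6 interleukin receptor chains rose, and no interleukin ligand passed the test, which does not mean that the ligands were unchanged. The KO and WT lungs did not overlap for 10 of 15 ligands (66.7%, 7 higher and 3 lower in KO). For the receptor chains this held for 16 of 36 (44.4%, 13 higher and 3 lower), and for 32.6% of all genes tested. The median log2 fold change was 0.31 for ligands, 0.26 for receptor chains and 0.00 for all genes tested. With p-values from edgeR's quasi-likelihood test, adjusted by Benjamini-Hochberg over all genes tested, 6 of the 55 genes (10.9%) were called at an adjusted p of at most 0.05, compared with 6.39% of all genes tested. All 6 were receptor chains and all 6 were higher in KO (Il9r, Il10ra, Il18rap, Il17ra, Il2rb and Il2rg), a direction in which 3.72% of all genes were called. Their fold changes (KO over WT) ran from 1.52 for Il2rg to 2.63 for Il9r. No gene was called lower (2.67% of all genes were), although 3 genes with lower estimates had an unadjusted p under 0.05, and both edgeR's exact test and DESeq2 called 1 of them, Il33. The study's joint threshold (log2 fold change of 1.5 or more in size with the same limit on adjusted p) was passed by none, while 0.640% of all genes passed it. DESeq2 placed 1 member past it and edgeR's exact test 2.

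Among the 55 genes, 41 estimates were higher in KO and 14 lower, and the median log2 fold change was 0.31 against 0.00 over all genes tested. The median over the genes of log2 CPM relative to the WT mean was 0.24 in KO4, 0.25 in KO5 and 0.33 in KO6, and lay between −0.00 and 0.01 in the WT lungs. For 29 genes (52.7%) the 3 KO lungs all lay above or all lay below the 3 WT lungs, compared with 32.6% of all genes tested. The KO values were the higher ones for 23 of them (41.8%, against 17.0% of all genes) and the lower ones for 6 (15.6% of all genes were lower without overlap). At an unadjusted p under 0.05, 27 genes (49.1%) passed, against 25.5% of all genes. The exact two-sided permutation p of a gene whose groups did not overlap is 0.1, the smallest that 3 mice against 3 allow. The number of calls depended on single mice. It was 0 without WT4, WT5, WT6 or KO6, fits in which 1.48%, 0.00570%, 0.368% and 0.672% of all genes were called. It was 9 without KO4 and 7 without KO5, fits in which 7.30% and 5.48% of all genes were called.

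**Figure D1:**
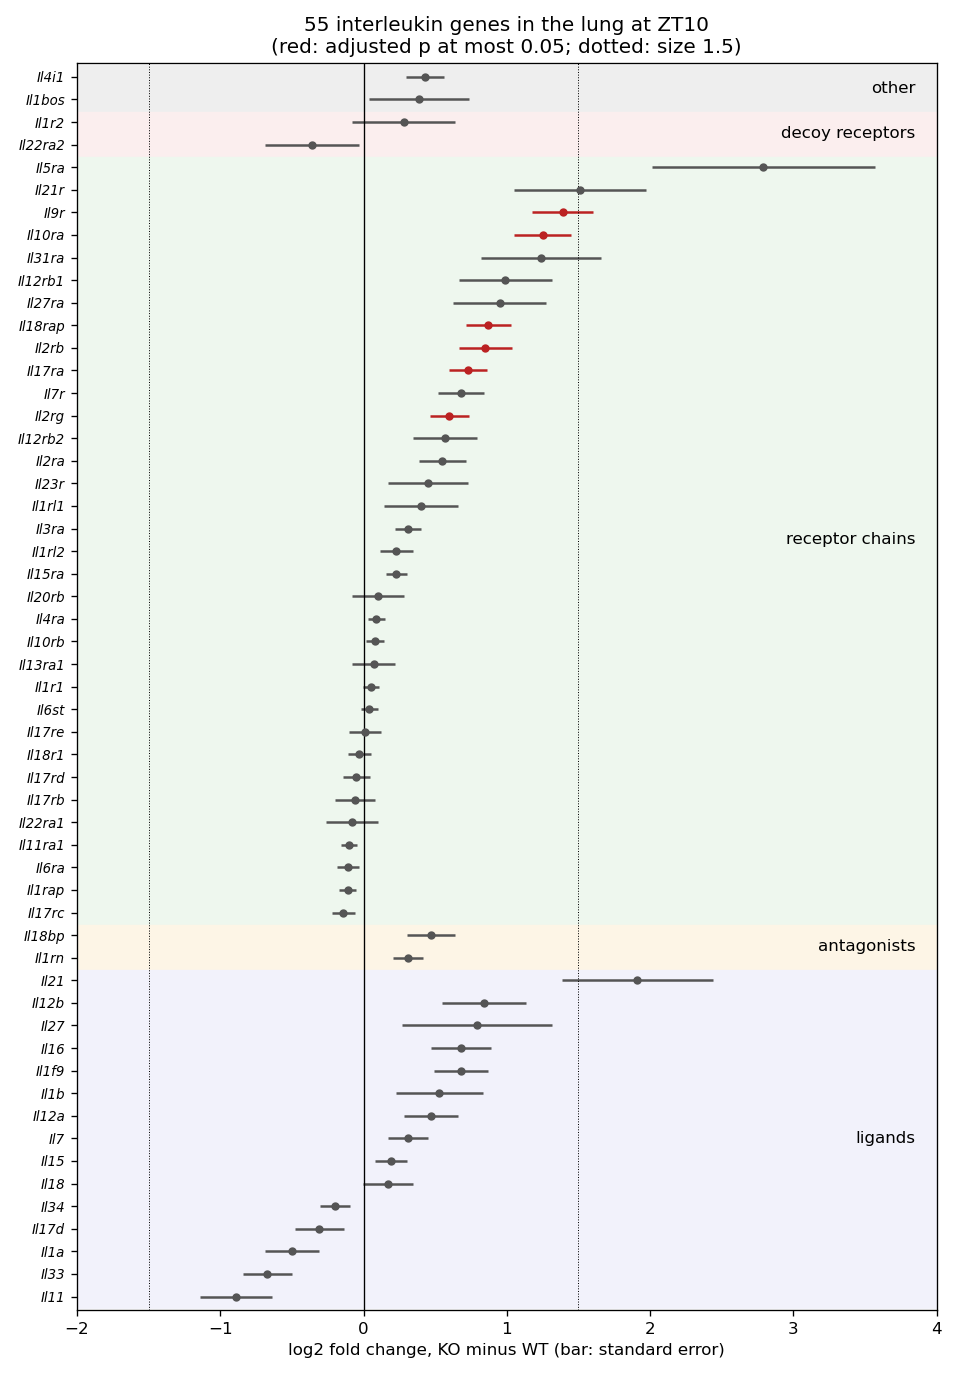
Log2 fold change (KO minus WT, x axis) of each of the 55 interleukin genes with its standard error as a bar, grouped by role, ordered by value within a role and with called genes in red. The 6 called genes lie between 0.60 and 1.39, Il5ra lies highest at 2.79 with a wide bar, and Il11 lies lowest at −0.89.

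In the common gamma family 3 receptor chains rose and none of its genes had a lower estimate. This family holds the receptors of IL-2, IL-4, IL-7, IL-9, IL-15 and IL-21, which share the gamma chain encoded by Il2rg, and with the IL-4 receptor its partner chain Il13ra1. With the ligands Il7, Il15 and Il21 counted in, the family has 12 genes, 9 of them receptor chains. The receptor chains alone had 7 higher without overlap and a median log2 fold change of 0.60. All 12 genes had higher estimates in KO, 10 of them without overlap (17.0% of all genes were higher without overlap), with a median log2 fold change of 0.58. The 10 include Il21, which met the count rule through the KO lungs, where it was high. Il9r, Il2rb and Il2rg were called.

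Il9r encodes the chain that binds IL-9, a growth factor of mast cells and T cells. Its level was 3.66, 3.50 and 4.33 CPM in WT4 to WT6 and 7.77, 13.0 and 9.33 CPM in KO4 to KO6. Every KO lung was above every WT lung, and the lowest KO value was well above the highest WT value. The mean was 3.83 ± 0.443 CPM in WT and 10.1 ± 2.71 CPM in KO (SD, n = 3), a log2 fold change of 1.39 (SE 0.212, adjusted p = 0.0210, edgeR's quasi-likelihood test). It was also higher without KO5, at 1.15 with an adjusted p of 0.0149 by edgeR's quasi-likelihood test, but the same test gave 0.0678 without WT4, 0.109 without WT5, 0.0713 without WT6 and 0.0633 without KO6. Il9r (ENSMUSG00000020279) lies on the minus strand of chromosome 11 from 32187541 to 32200279 in GRCm38, on the chromosome that carries Zpbp2 and 66.4 Mb from it. The gene of its ligand, Il9, had 0 counts in all 6 lungs, below the floor of 3 counts.

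Il2rb, the signalling beta chain shared by the IL-2 and IL-15 receptors, is known from natural killer and T cells. Its level was 11.3, 10.6 and 10.7 CPM in the WT lungs and 14.1, 24.3 and 20.2 CPM in the KO lungs. The WT lungs were tightly grouped and the KO lungs widely spread above them. The means were 10.9 ± 0.371 and 19.5 ± 5.10 CPM (SD, n = 3), and the log2 fold change was 0.85 (SE 0.185, adjusted p = 0.0440, edgeR's quasi-likelihood test). This call held only without KO4; the adjusted p of edgeR's quasi-likelihood test was 0.0597 without KO5, 0.107 without KO6, 0.115 without WT4, 0.163 without WT5 and 0.130 without WT6.

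Il2rg, the shared gamma chain, was measured at 37.1, 35.7 and 38.9 CPM in WT and at 48.5, 69.2 and 51.1 CPM in KO. KO5 was highest, with KO4 and KO6 close together below it and above all WT lungs. The means were 37.2 ± 1.62 and 56.3 ± 11.3 CPM (SD, n = 3), and the log2 fold change was 0.60 (SE 0.134, adjusted p = 0.0454, edgeR's quasi-likelihood test). Without KO5 it was 0.42 with an adjusted p of 0.0179, and without WT4, WT5, WT6 or KO6 the adjusted p of edgeR's quasi-likelihood test was 0.127, 0.171, 0.116 and 0.0805. Il2rb (ENSMUSG00000068227) lies on chromosome 15 from 78479256 to 78495271 and Il2rg (ENSMUSG00000031304) on chromosome X from 101264378 to 101268255. Exons of Il2rg share 728 bp with Gm20489 on the same strand, so that reads of this stretch cannot be assigned to one gene.

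The remaining chains of the family were not called by edgeR's quasi-likelihood test, although DESeq2 and edgeR's exact test called Il7r and the exact test alone called Il21r. Il7r, the IL-7 receptor chain of lymphocytes, stood at 21.5, 18.0 and 18.7 CPM in WT and 25.7, 39.0 and 27.8 CPM in KO. Its groups did not overlap, and its log2 fold change of 0.68 (SE 0.163) had an adjusted p of 0.0549 by edgeR's quasi-likelihood test, which fell to 0.0431 without KO5 and 0.0397 without KO4. Il21r, the IL-21 receptor chain of B and T cells, stood at 6.72, 6.47 and 7.15 CPM in WT and 8.90, 34.7 and 13.8 CPM in KO. All KO lungs were above the WT lungs, but KO5 set the mean, and the log2 fold change of 1.51 (SE 0.462, adjusted p = 0.0978, edgeR's quasi-likelihood test) was 0.74 without KO5, with an adjusted p of 0.0726 by the same test, and 1.85 without KO4, with 0.0367. Il2ra, the alpha chain that raises affinity for IL-2, had a log2 fold change of 0.55 (SE 0.162) and Il15ra, which presents IL-15, one of 0.23 (SE 0.0717), both without overlap between the groups.

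The receptor chains for IL-4 and IL-13 had the smallest estimates of the family. Il4ra, the chain that binds IL-4, measured 110.0, 108 and 116 CPM in WT and 121, 123 and 111 CPM in KO, and its groups overlapped. Its log2 fold change was 0.09 (SE 0.0589, adjusted p = 0.396, edgeR's quasi-likelihood test). Il13ra1, which pairs with Il4ra to bind IL-13, measured 64.9, 72.8 and 75.4 CPM in WT and 85.3, 57.1 and 82.7 CPM in KO, with KO5 the lowest of the 6 lungs. Its log2 fold change was 0.07 (SE 0.150, adjusted p = 0.805, edgeR's quasi-likelihood test), and its sign turned without KO4 (−0.03) and without KO6 (−0.00).

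**Figure D2:**
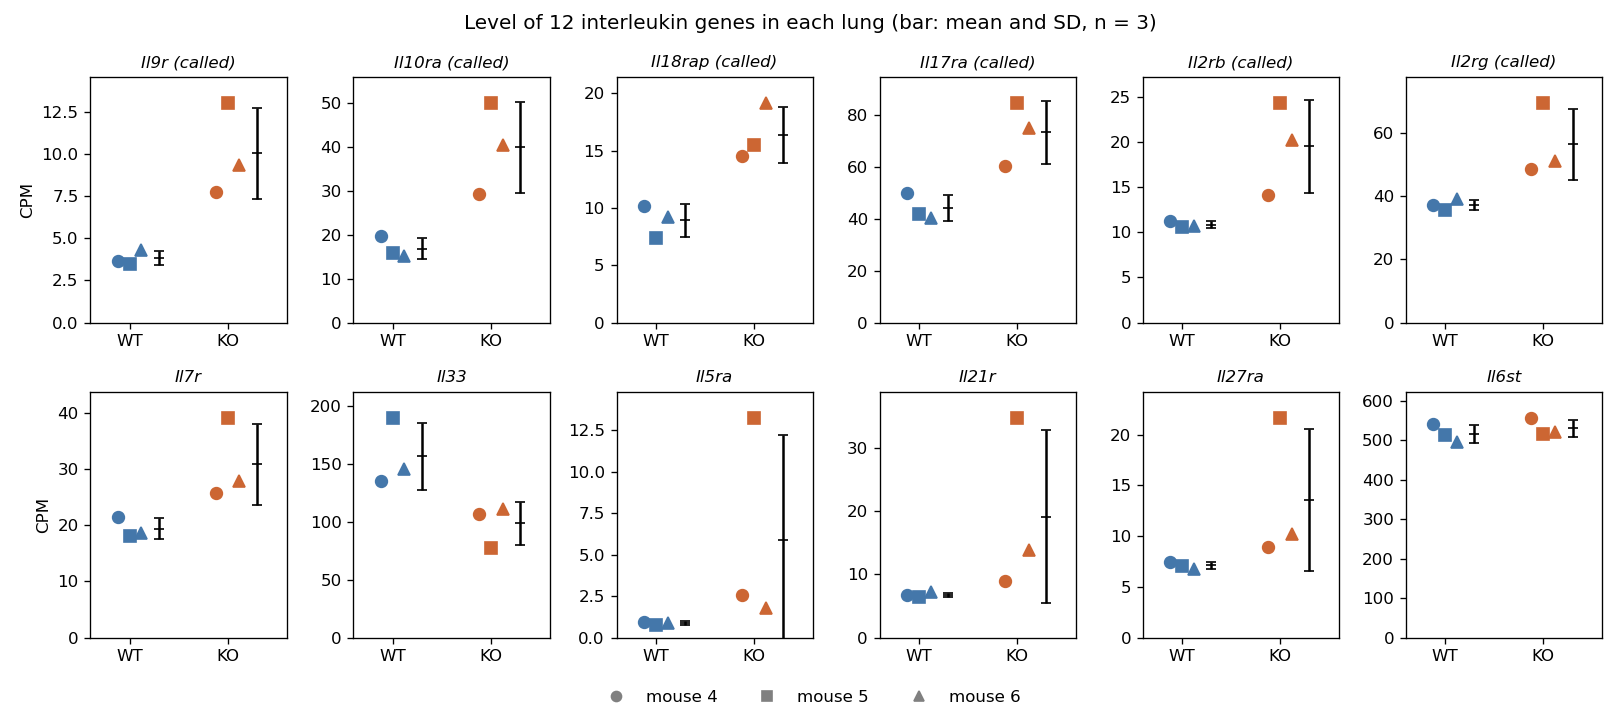
Level (y axis, CPM, linear from 0) of 12 interleukin genes in each WT (blue) and KO (orange) lung, with a bar for the mean and SD of the 3 mice, cut at 0 for Il5ra. The KO lungs lie above the WT lungs for the 6 called genes and for Il7r, Il5ra, Il21r and Il27ra, below them for Il33 and among them for Il6st, and KO5 lies far above the other lungs for Il5ra, Il21r and Il27ra.

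Sequence around the annotated start is shown for called genes with a RefSeq promoter window (250 bases before the start and 50 after it, GRCm38.p6) and for 2 genes beside them. Of the 55 genes, 44 had such a window. The windows of Il9r (chr11:32200230-32200529, minus strand), Il18rap (chr1:40515112-40515411, plus strand) and Il2rg (chrX:101268206-101268505, minus strand) follow, 5′ to 3′, with the transcribed bases in capitals.
Il9r: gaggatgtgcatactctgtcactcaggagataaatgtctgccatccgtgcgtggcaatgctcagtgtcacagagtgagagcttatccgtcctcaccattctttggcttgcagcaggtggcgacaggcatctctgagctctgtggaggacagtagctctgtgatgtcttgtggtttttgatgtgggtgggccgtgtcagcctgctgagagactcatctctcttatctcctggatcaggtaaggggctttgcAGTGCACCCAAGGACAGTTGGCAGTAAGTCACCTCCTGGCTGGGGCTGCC
Il18rap: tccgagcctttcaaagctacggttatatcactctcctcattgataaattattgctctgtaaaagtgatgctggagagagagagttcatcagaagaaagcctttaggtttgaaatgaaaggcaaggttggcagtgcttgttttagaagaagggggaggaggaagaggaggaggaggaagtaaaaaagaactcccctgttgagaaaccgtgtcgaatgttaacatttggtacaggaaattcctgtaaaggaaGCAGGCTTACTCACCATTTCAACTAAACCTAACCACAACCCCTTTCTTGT
Il2rg: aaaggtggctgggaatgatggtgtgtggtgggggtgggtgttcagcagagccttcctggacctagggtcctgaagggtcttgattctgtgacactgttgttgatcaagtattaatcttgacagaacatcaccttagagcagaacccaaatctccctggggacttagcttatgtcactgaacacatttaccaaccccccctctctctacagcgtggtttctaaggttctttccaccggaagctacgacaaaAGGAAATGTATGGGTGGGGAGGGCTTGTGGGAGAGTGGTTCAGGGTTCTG

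None of these windows held TTCNNNGAA, the palindrome bound by STAT factors, or AGGTCA, the core element bound by the clock factor NR1D1 and its ROR relatives, on either strand. The window of Il7r (chr15:9529827-9530126, minus strand) and 1 of 3 windows of Il18r1 (chr1:40465756-40466055, plus strand), the partner chain of Il18rap, hold the STAT palindrome, which is set in capitals. The other 2 windows of Il18r1 start at 40465302 and 40465371, before the one shown, and hold no match.
Il7r: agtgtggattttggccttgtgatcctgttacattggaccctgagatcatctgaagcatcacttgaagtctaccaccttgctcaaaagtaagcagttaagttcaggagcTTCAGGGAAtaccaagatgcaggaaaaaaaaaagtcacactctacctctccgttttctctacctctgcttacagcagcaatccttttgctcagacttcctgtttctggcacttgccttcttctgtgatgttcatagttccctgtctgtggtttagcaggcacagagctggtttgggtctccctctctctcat
Il18r1: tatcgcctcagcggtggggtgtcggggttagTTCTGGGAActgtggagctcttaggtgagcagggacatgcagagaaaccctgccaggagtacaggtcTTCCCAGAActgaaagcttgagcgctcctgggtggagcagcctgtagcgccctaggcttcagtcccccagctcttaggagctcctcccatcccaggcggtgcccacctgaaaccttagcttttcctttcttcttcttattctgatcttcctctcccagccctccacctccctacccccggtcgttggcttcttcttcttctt

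The palindrome began 142 bases before the start of Il7r and 219 and 152 bases before the most downstream of the 3 RefSeq starts of Il18r1. Among the 44 genes with a window, 8 (18.2%) held it, compared with 9.55% of all 27025 genes with windows of the same length. AGGTCA was held by 9 of the 44 (20.5%), compared with 18.1% of all genes. These are matches of letters and not measured binding sites. Il7r was not called and Il18r1 had a log2 fold change of −0.03 (SE 0.0800).

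In the IL-10 family Il10ra rose. It encodes the chain that binds IL-10, a cytokine that restrains macrophages and dendritic cells, and it is known from leukocytes. Il10ra (ENSMUSG00000032089, chromosome 9 from 45253837 to 45269149) measured 19.7, 15.8 and 15.1 CPM in WT and 29.3, 50.0 and 40.6 CPM in KO. Each KO lung was above each WT lung. The means were 16.9 ± 2.48 and 40.0 ± 10.4 CPM (SD, n = 3), and the log2 fold change was 1.25 (SE 0.200, adjusted p = 0.0227, edgeR's quasi-likelihood test). Without KO5 the log2 fold change was 1.05 with an adjusted p of 0.0208, and without WT4, WT5, WT6 or KO6 the adjusted p of edgeR's quasi-likelihood test was 0.0503, 0.115, 0.0853 and 0.0673. Its partner Il10rb, which is found on most cell types, measured 74.4, 71.5 and 78.5 CPM in WT and 84.2, 74.0 and 78.9 CPM in KO, and the groups overlapped (log2 fold change 0.08, SE 0.0639). Il20rb (0.10), Il22ra1 (−0.08) and the decoy receptor Il22ra2 (−0.36) also overlapped between groups. The ligand gene Il10 did not meet the count rule, with 3, 2 and 5 counts in WT and 7, 28 and 7 counts in KO.

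Among the IL-17 receptor chains 1 of 5 rose. Il17ra, the chain common to the receptors of this family, measured 50.1, 42.0 and 40.5 CPM in WT and 60.4, 84.5 and 75.1 CPM in KO. The groups did not overlap. The means were 44.2 ± 5.19 and 73.3 ± 12.2 CPM (SD, n = 3), and the log2 fold change was 0.73 (SE 0.135, adjusted p = 0.0295, edgeR's quasi-likelihood test). It was 0.61 without KO5, with an adjusted p of 0.0388, and without WT4, WT5, WT6 or KO6 the adjusted p of edgeR's quasi-likelihood test was 0.0557, 0.136, 0.102 and 0.0810. Il17ra (ENSMUSG00000002897) lies on chromosome 6 from 120463247 to 120487559. The other receptor chains of the family were not called, with log2 fold changes of −0.14 for Il17rc (SE 0.0786), −0.06 for Il17rb (SE 0.142), −0.05 for Il17rd (SE 0.0961) and 0.01 for Il17re (SE 0.109). The ligand Il17d had a log2 fold change of −0.31 (SE 0.171) with overlapping groups. Il17a, Il17b, Il17c and Il17f had at most 3 counts in any lung.

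The IL-1 family held 14 of the genes, of which 10 had higher estimates in KO and 4 lower. Il18rap, the accessory chain that IL-18 needs to signal in natural killer and T cells, was the one called. It measured 10.2, 7.38 and 9.22 CPM in WT and 14.5, 15.5 and 19.1 CPM in KO. KO6 was highest and KO5 was not set apart from KO4. The means were 8.94 ± 1.44 and 16.4 ± 2.44 CPM (SD, n = 3), and the log2 fold change was 0.87 (SE 0.156, adjusted p = 0.0283, edgeR's quasi-likelihood test). Without KO5 it was 0.90 with an adjusted p of 0.0360, and without WT4, WT5, WT6 or KO6 the adjusted p of edgeR's quasi-likelihood test was 0.0594, 0.115, 0.0959 and 0.0740. Il18rap (ENSMUSG00000026068) lies on chromosome 1 from 40515362 to 40551705, beside Il18r1. Il18r1, which binds IL-18, measured 89.2, 104 and 95.9 CPM in WT and 99.3, 85.7 and 98.1 CPM in KO, with overlapping groups, and the sign of its log2 fold change turned without KO5 (0.03) and without WT5 (0.02).

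The ligand Il18 measured 11.8, 8.24 and 9.96 CPM in WT and 9.87, 13.4 and 10.5 CPM in KO, and the groups overlapped (log2 fold change 0.17, SE 0.173). Its secreted inhibitor Il18bp measured 7.45, 5.32 and 8.05 CPM in WT and 9.14, 9.46 and 10.4 CPM in KO. The inhibitor's groups did not overlap, but its log2 fold change of 0.47 (SE 0.167) had an adjusted p of 0.134 by edgeR's quasi-likelihood test. Il1rn, the antagonist that occupies the IL-1 receptor, also had groups that did not overlap, with 8.62, 7.67 and 8.15 CPM in WT, 9.39, 10.8 and 10.1 CPM in KO and a log2 fold change of 0.31 (SE 0.105, adjusted p = 0.125, edgeR's quasi-likelihood test). Neither antagonist was called by edgeR's exact test or DESeq2, and both had an unadjusted p under 0.05.

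Among the ligands of this family, Il33 was the one with the largest counts and stood lower in KO. IL-33 is stored in the nuclei of epithelial and other structural cells and is set free by damage. It measured 135, 189 and 145 CPM in WT and 107, 77.5 and 111 CPM in KO. WT5 was highest, KO5 lowest, and the groups did not overlap. The means were 157 ± 28.4 and 98.6 ± 18.4 CPM (SD, n = 3), and the log2 fold change was −0.67 (SE 0.170). The adjusted p of 0.0625 by edgeR's quasi-likelihood test missed the threshold, and with each mouse left out in turn it lay between 0.0790 and 0.186 while the log2 fold change stayed between −0.77 and −0.51. Its receptor chain Il1rl1, carried by innate lymphoid and mast cells, measured 4.59, 6.52 and 3.62 CPM in WT and 4.89, 6.63 and 7.80 CPM in KO, with overlapping groups (log2 fold change 0.40, SE 0.257). The accessory chain Il1rap, which Il1rl1 shares with the IL-1 receptor, had a log2 fold change of −0.11 (SE 0.0601). The lung epithelial marker list, whose 8 genes all had lower estimates in KO and 4 of which did not overlap (none called by edgeR's quasi-likelihood or exact test, 3 by DESeq2, 4 at an unadjusted p under 0.05), moved with Il33, and its part in the result was not tested.

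The inflammatory ligands Il1a and Il1b had estimates of opposite sign, and neither was called. Il1a measured 6.60, 5.51 and 6.40 CPM in WT and 3.28, 4.62 and 5.18 CPM in KO, lower in every KO lung (log2 fold change −0.50, SE 0.189, adjusted p = 0.154, edgeR's quasi-likelihood test). Il1b measured 5.88, 9.39 and 13.8 CPM in WT and 15.7, 10.9 and 15.6 CPM in KO, with overlapping groups and a wide spread in WT (log2 fold change 0.53, SE 0.301), and its antisense RNA Il1bos had a log2 fold change of 0.39 (SE 0.349), also with overlap. Il1f9, an IL-36 ligand, was higher in every KO lung at 2.05 to 2.67 CPM against 1.26 to 1.61 CPM in WT (log2 fold change 0.68, SE 0.187, adjusted p = 0.0773, edgeR's quasi-likelihood test). Il1r1, the signalling IL-1 receptor, and the decoy Il1r2 had log2 fold changes of 0.05 (SE 0.0564) and 0.28 (SE 0.362), and both overlapped. So did Il1rl2, the IL-36 receptor (0.23, SE 0.114).

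Il5ra had the largest estimate of the 55 genes. It encodes the IL-5 binding chain of eosinophils and of some B cells, and signals through the common beta chain Csf2rb. Its level was 0.966, 0.767 and 0.873 CPM in WT and 2.59, 13.2 and 1.78 CPM in KO. Every KO lung was above the WT lungs, and KO5 was several times above the other KO lungs. The log2 fold change of 2.79 (SE 0.780) had an adjusted p of 0.0794 by edgeR's quasi-likelihood test. Without KO5 the log2 fold change was 1.32 and its adjusted p by the same test was 0.0379, so that Il5ra passed the threshold in 1 of the 6 leave-one-out fits, the one that lacked KO5. Il3ra, which also pairs with the common beta chain, measured 18.8, 17.3 and 16.1 CPM in WT and 23.5, 20.4 and 21.1 CPM in KO (log2 fold change 0.31, SE 0.0894, adjusted p = 0.0833, edgeR's quasi-likelihood test). Of the eosinophil markers Siglecf, Ccr3, Prg2 and Epx, none separated the groups, Epx had at most 0.0988 CPM in any lung, and their sum was 12.0 to 17.2 CPM in WT and 18.2 to 23.2 CPM in KO. None of the 3 that were tested was called by edgeR's quasi-likelihood test, edgeR's exact test or DESeq2, and 1 had an unadjusted p under 0.05. The sum of the 7 B cell markers was 98.6 to 116 CPM in WT and 203, 827 and 229 CPM in KO, with KO5 the highest, and its part in the Il5ra values was not tested.

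Of the genes of the gp130 receptors and their ligands, 0 of 7 were called by edgeR's quasi-likelihood test, 3 had an unadjusted p under 0.05, DESeq2 called 1 and edgeR's exact test 0. Il6st, which encodes gp130 itself, measured 541, 512 and 496 CPM in WT and 555, 515 and 521 CPM in KO, and the groups overlapped. Its log2 fold change was 0.04 (SE 0.0604, adjusted p = 0.738, edgeR's quasi-likelihood test). Il6ra (−0.11, SE 0.0760) and Il11ra1 (−0.10, SE 0.0544) had overlapping and non-overlapping groups, respectively. Il11ra1 has near-identical copies, annotated as Il11ra2, so that reads matching both cannot be assigned to one gene. The copies held at most 2 counts in any lung. Il27ra, the IL-27 receptor of T and B cells, measured 7.45, 7.09 and 6.79 CPM in WT and 8.90, 21.6 and 10.2 CPM in KO, so that KO5 again stood apart, and its log2 fold change of 0.95 (SE 0.325, adjusted p = 0.128, edgeR's quasi-likelihood test) was 0.42 without KO5. Il31ra, the IL-31 receptor, was near the count limit at 0.192 to 0.443 CPM in WT and 0.440 to 1.04 CPM in KO (log2 fold change 1.24, SE 0.419, adjusted p = 0.123, edgeR's quasi-likelihood test). The ligand Il11, a product of fibroblasts and other stromal cells, had the lowest estimate of the 55, with 0.765, 0.958 and 1.0 CPM in WT and 0.587, 0.420 and 0.494 CPM in KO (log2 fold change −0.89, SE 0.252, adjusted p = 0.0806, edgeR's quasi-likelihood test). Its groups did not overlap. Il27, a subunit of IL-27, had a log2 fold change of 0.79 (SE 0.523) that rested on KO6, where it measured 1.73 CPM against 0.587 and 0.503 CPM in KO4 and KO5, and was 0.06 without that mouse.

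In the IL-12 family all 5 genes had higher estimates in KO, with a median of 0.57. Il12rb1, the chain shared by the IL-12 and IL-23 receptors, measured 1.17, 0.958 and 1.97 CPM in WT and 1.91, 3.23 and 3.06 CPM in KO. WT6 overlapped with KO4, and the log2 fold change was 0.99 (SE 0.322, adjusted p = 0.114, edgeR's quasi-likelihood test). The ligand subunits Il12a (0.47, SE 0.187) and Il12b (0.84, SE 0.294), made by dendritic cells and macrophages, did not overlap between groups, whereas Il12rb2 (0.57, SE 0.224) and Il23r (0.45, SE 0.277) did. None of the 5 was called by edgeR's quasi-likelihood test, edgeR's exact test or DESeq2, and 4 had an unadjusted p under 0.05. Exons of Il12rb2 share 1519 bp with Serbp1 on the opposite strand.

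Of the other ligands, Il21, Il16, Il7 and Il15 were higher in every KO lung, although none was called. Il21, a product of follicular helper T cells, had 2, 2 and 11 counts in WT and 10, 41 and 16 counts in KO, that is 0.0805, 0.0958 and 0.356 CPM against 0.489, 0.860 and 0.790 CPM. It met the count rule through the KO lungs, and its log2 fold change of 1.91 (SE 0.526) had an adjusted p of 0.0763 by edgeR's quasi-likelihood test. Il16, a chemoattractant of CD4+ cells, measured 36.4, 29.8 and 29.5 CPM in WT and 39.7, 68.9 and 43.5 CPM in KO (log2 fold change 0.68, SE 0.209, adjusted p = 0.102, edgeR's quasi-likelihood test, and 0.38 without KO5), and its exons share 1202 bp with Stard5 on the opposite strand. The lymphocyte survival factors Il7 and Il15 had log2 fold changes of 0.31 (SE 0.139) and 0.19 (SE 0.113). In all, none of the 15 ligands was called by edgeR's quasi-likelihood test, 8 had an unadjusted p under 0.05, DESeq2 called 2 (Il16 and Il33) and edgeR's exact test called 3 (Il16, Il21 and Il33). Il4i1, an enzyme of antigen-presenting cells, measured 32.7 to 35.0 CPM in WT and 37.9 to 54.9 CPM in KO, with a log2 fold change of 0.43, which was 0.25 without KO5. The adjusted p of edgeR's quasi-likelihood test was 0.1 and ran from 0.0459, without KO4, to 0.262 with a mouse left out, and 3423 of its 4080 exonic bp lie opposite exons of Tbc1d17.

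The interleukins most closely tied to type 2 inflammation did not meet the count rule. Il4 had 2, 4 and 5 counts in WT and 8, 15 and 13 counts in KO, and so missed the rule with 2 libraries at 10 counts. Il5 had 0 to 2 counts per lung, Il13 had 2 counts in KO4 and 0 elsewhere, Il9 had 0 throughout, and Il25 had 1 count in WT6 and 0 elsewhere. Il6 had 6, 4 and 12 counts in WT and 7, 10 and 4 in KO, and Il13ra2, the IL-13 decoy receptor, had 0 to 9. These genes did not pass the filter on low counts. In the fit with no filter Il4 had a log2 fold change of 1.54 with an adjusted p of 0.121 and Il10 one of 1.74 with 0.0634 (edgeR's quasi-likelihood test), while Il6 had one of −0.22. Just inside the rule lay Il31ra, with 11, 4 and 9 counts in WT and 9, 36 and 21 in KO, and 51 of the 55 genes had at least 10 counts in all 6 libraries.

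**Figure D3:**
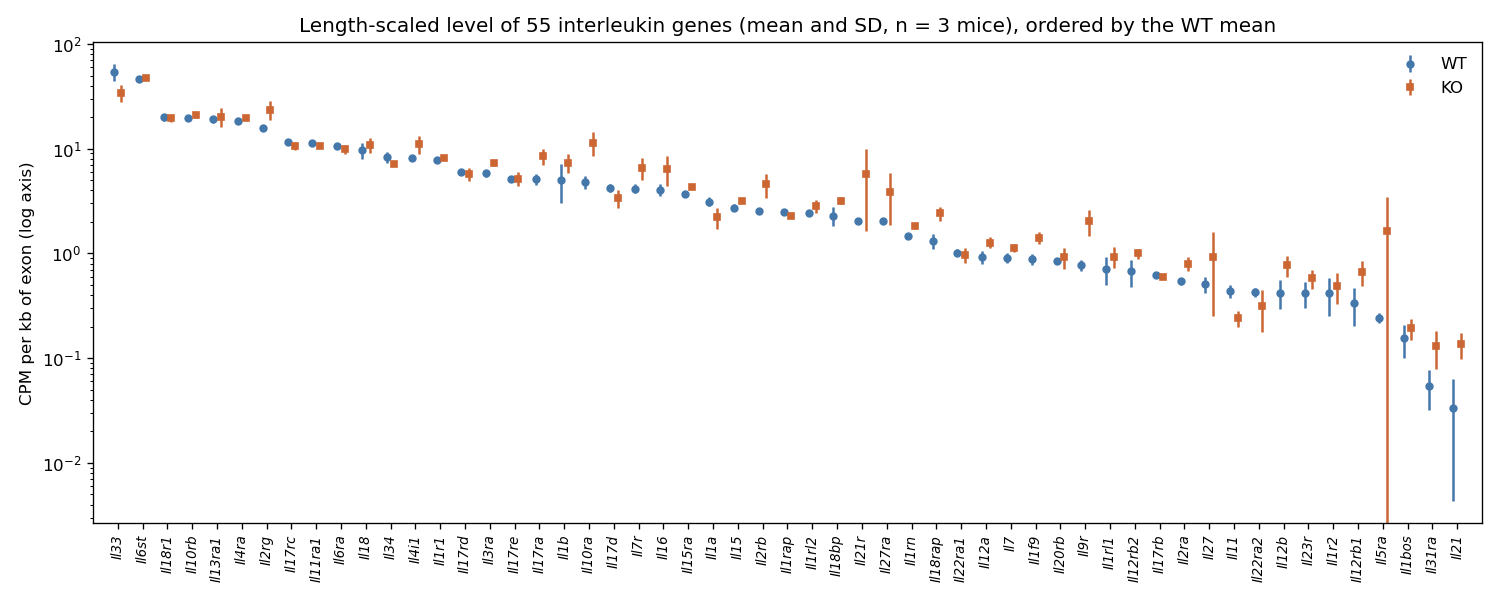
Mean level in CPM per kb of exon (log axis) of the 55 interleukin genes in WT and KO lungs with SD (n = 3), ordered by the WT mean. Il33 and Il6st lie highest in WT, at 54.2 and 46.5 CPM per kb, and Il21 lies lowest.

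Levels of different genes were compared per kb of exon. In WT, Il33 (54.2 ± 9.84 CPM per kb, SD, n = 3) and Il6st (46.5 ± 2.06) were the highest and did not differ beyond their summed SD. They were followed by Il18r1 (20.0 ± 1.53), Il10rb (19.6 ± 0.924), Il13ra1 (19.1 ± 1.47) and Il4ra (18.5 ± 0.731), of which no neighbours differed. Il2rg followed at 15.6 ± 0.677, below Il4ra by more than their summed SD. In all, 10 genes were at 10 CPM per kb or more, 25 from 1 to 10 and 20 below 1, and 11 of the 54 neighbouring pairs in the order differed beyond their summed SD. In KO, Il33 stood behind Il6st in this order, at 34.2 ± 6.37 against 47.8 ± 1.95 CPM per kb. The called receptors ranged in WT from Il9r, below 1 CPM per kb, to Il2rg.

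The genes that act with these receptors were read from 5 lists of known function. Of 27 tested shared chains and related cytokines outside the Il symbols, 6 were called higher and 1 lower by edgeR's quasi-likelihood test, beside 3.72% and 2.67% of all genes. Csf2rb, the common beta chain of the IL-3, IL-5 and GM-CSF receptors, measured 46.9, 35.7 and 35.0 CPM in WT and 55.6, 73.5 and 68.4 CPM in KO, without overlap (log2 fold change 0.75, SE 0.143, adjusted p = 0.0322, edgeR's quasi-likelihood test). Its paralog Csf2rb2, with which it can share reads, had a log2 fold change of 0.68 (adjusted p = 0.0345, edgeR's quasi-likelihood test). Ebi3, the beta subunit of IL-27 and IL-35, rose from 1.74 ± 0.0522 to 3.81 ± 0.773 CPM (SD, n = 3; log2 fold change 1.14, adjusted p = 0.0252, edgeR's quasi-likelihood test). Csf1r, the receptor of IL-34, rose by a log2 fold change of 0.57 (adjusted p = 0.0262, edgeR's quasi-likelihood test), and its ligand Il34 had one of −0.20 (SE 0.104) with overlapping groups. Crlf2, the receptor chain for the epithelial cytokine TSLP, rose by 0.35, Lifr by 0.24, and Osmr, the oncostatin M receptor, fell by 0.24 on the log2 scale (adjusted p 0.0286, 0.0409 and 0.0389 by edgeR's quasi-likelihood test). Without KO5, 3 of the 7 genes of this list were called, without WT4 also 3, without WT6 1, and without WT5 or KO6 0.

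The list of IL-1 receptor signalling and inflammasome genes had 6 of 24 called, all higher, beside 3.72% of all genes called higher. The inflammasome cleaves the precursors of IL-1β and IL-18 into active cytokines by caspase-1. Casp1 measured 12.2, 12.8 and 12.3 CPM in WT and 21.7, 25.3 and 23.1 CPM in KO, with little spread in either group (log2 fold change 0.91, SE 0.0826, adjusted p = 0.00665, edgeR's quasi-likelihood test), and it was called in 5 of the 6 leave-one-out fits. Casp4, the sensor of cytosolic lipopolysaccharide, and Gsdmd, which forms the pore for release, rose by 0.83 and 0.40 on the log2 scale (adjusted p 0.0187 and 0.0196, edgeR's quasi-likelihood test). The sensors Aim2 and Nlrc4 rose by 1.40 and 1.29 (adjusted p 0.0287 and 0.0470), and Tnfaip3, an inhibitor of this pathway, by 0.69 (adjusted p 0.0120 by edgeR's quasi-likelihood test). Without WT5 none of the list was called, without KO6 or WT6 2 were, and without WT4 3 were.

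Among the Janus kinases and STAT factors, Jak3, the kinase that binds the common gamma chain, had a log2 fold change of 0.29 (SE 0.101) and Stat5a one of 0.37 (SE 0.112), and neither was called. Of 15 SOCS and other inhibitor genes, Ptpn6, a phosphatase of leukocyte receptors, was called (1.09, SE 0.207, adjusted p = 0.0322, edgeR's quasi-likelihood test), while Socs1 (0.35, SE 0.204) and Socs3 (0.22, SE 0.121) were not. Ptpn6 was not called without WT4, WT5, WT6 or KO6. Of the 5 genes of the IL-17 receptor adaptor list, none was called by edgeR's quasi-likelihood test, edgeR's exact test or DESeq2, and 1 had an unadjusted p under 0.05.

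Leukocyte markers moved with the receptor chains. All 7 pan-leukocyte markers (Ptprc, Laptm5, Coro1a, Cd53, Cytip, Arhgdib and Rac2) were called higher in KO by edgeR's quasi-likelihood test, with a median log2 fold change of 1.04, and their sum was 540.0 to 621 CPM in WT and 861 to 1502 CPM in KO. None of the 7 was called without WT4, WT5, WT6 or KO6. Their mean log2 CPM was above the WT mean by 0.59 in KO4, 1.38 in KO5 and 0.89 in KO6, a difference of 0.95 between the groups (exact permutation p = 0.1, two-sided, the smallest possible). Monocyte markers were called higher for 8 of 10 (sum 1714 to 1754 against 1769 to 2105 CPM, 0 without WT5 or WT6 and 4 without WT4 or KO6). Most of this sum was Ace, which was not called (log2 fold change 0.01, SE 0.0851). Neutrophil markers were called higher for 3 of 7 (58.8 to 98.9 against 152 to 175 CPM, 2 without WT6 and 0 without WT4, WT5 or KO6) and natural killer markers for 1 of 6 (28.4 to 40.4 against 47.2 to 61.7 CPM, 0 without WT4, WT5, WT6 or KO6). The part of the leukocyte markers in the results for the interleukin genes was not tested.

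The B cell, T cell and regulatory T cell lists had no call by edgeR's quasi-likelihood test, and their sums were higher in every KO lung. For the 7 B cell markers the median log2 fold change was 1.97, and 1.02 without KO5. All 7 had an unadjusted p under 0.05, both DESeq2 and edgeR's exact test called all 7, and edgeR's quasi-likelihood test called 7 without KO5 and 6 without KO4. For the 7 T cell markers the sum was 44.5 to 49.0 CPM in WT and 50.8 to 131 CPM in KO. Their median log2 fold change was 0.85, and 0.37 without KO5, where the estimate of Cd8a turned to −0.13. Of these markers 6 had an unadjusted p under 0.05, DESeq2 called 4, edgeR's exact test 1, and edgeR's quasi-likelihood test 3 without KO4 and 0 without KO5. For the 3 regulatory T cell markers 3 had an unadjusted p under 0.05, DESeq2 called 2, edgeR's exact test 3, and edgeR's quasi-likelihood test 2 without KO4 and 0 without KO5. Their sum was 12.1 to 14.9 CPM against 16.8 to 24.2 CPM. The summed mast cell markers (204 to 218 against 199.5 to 213 CPM), nearly all of which was Kit, overlapped, but the mast cell genes Cma1 (log2 fold change 1.08, SE 0.326) and Ms4a2 (0.95, SE 0.323) were higher in every KO lung. Kit (−0.06), Cpa3 (0.48), Tpsb2 (0.52) and Mcpt4 (0.25) of the same list overlapped between groups. Without KO5 these estimates were −0.05, −0.12, −0.17 and −0.73, and the median of the list went from 0.50 to −0.09. The summed plasma cell markers (536 to 766 against 673 to 1158 CPM) also overlapped, but Tnfrsf17 (1.57, SE 0.480), Mzb1 (1.42, SE 0.449) and Jchain (1.48, SE 0.527) were higher in every KO lung. Xbp1 (−0.14, SE 0.0929) and Sdc1 (−0.14, SE 0.105) of the same list had lower estimates, with overlapping groups. No gene of these 2 lists was called by edgeR's quasi-likelihood test or DESeq2, the exact test called 0 and 2, and 2 of 6 and 3 of 5 had an unadjusted p under 0.05. Innate lymphoid type 2 markers had 1 of 5 called, which was lower (Areg), alveolar macrophage markers 1 of 8 higher and dendritic cell markers 2 of 6 higher and 1 lower. Endothelial markers had 1 of 4 called lower, and of the 5 mesenchymal markers none was called by edgeR's quasi-likelihood or exact test, 1 by DESeq2 and 1 at an unadjusted p under 0.05. No listed marker was at 0 in all lungs.

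**Figure D4:**
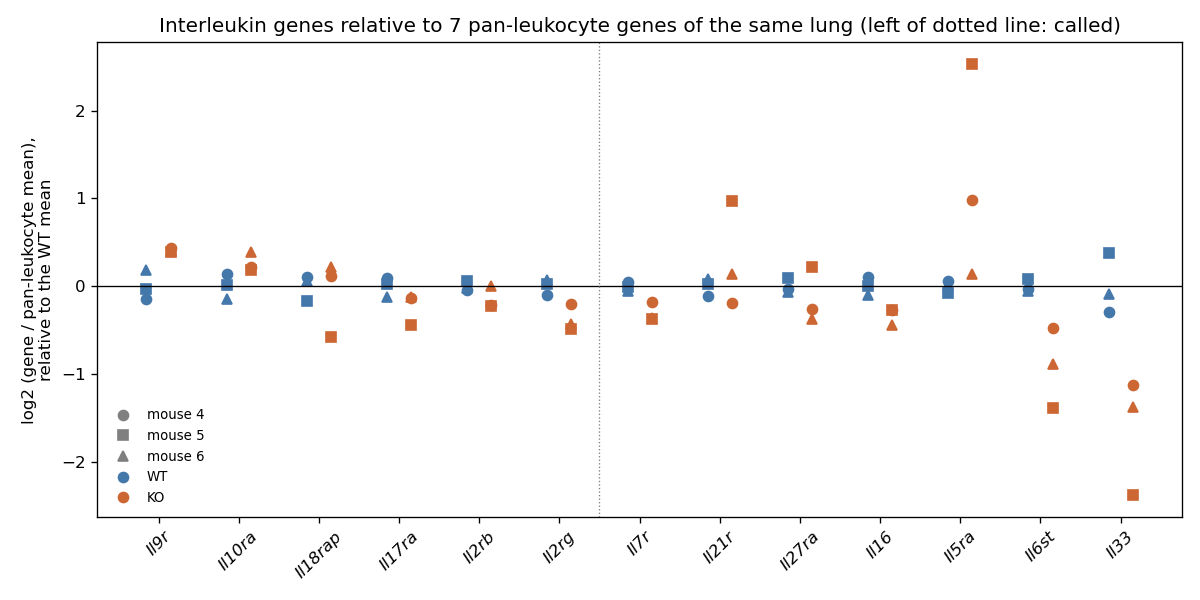
Log2 ratio of 13 interleukin genes to the mean of the 7 pan-leukocyte markers of the same lung (y axis, relative to the WT mean), with 1 point for each WT (blue) and KO (orange) lung and the called genes left of the dotted line. Il9r and Il10ra lie above 0 in every KO lung, Il2rg lies below it, and Il33 lies farther below, with a mean of −1.62.

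Relative to the pan-leukocyte markers of the same lung, Il9r and Il10ra were higher in KO and Il2rg and Il17ra lower. The log2 ratio of Il9r was higher by 0.44, 0.39 and 0.40 in KO4, KO5 and KO6 than the WT mean, around which the WT lungs ranged from −0.15 to 0.19. That of Il10ra was higher by 0.22, 0.19 and 0.39, with the WT lungs between −0.15 and 0.14. For both genes the groups did not overlap, with a mean difference of 0.41 and 0.27 (exact permutation p = 0.1, two-sided, the smallest possible). With Ptprc alone as the reference these differences were 0.26 and 0.12. Il2rg was lower by 0.37 and Il17ra by 0.23 on this scale, without overlap, although for Il17ra the nearest KO and WT lungs were both at −0.12. Il18rap (−0.08) and Il2rb (−0.15) overlapped, and Il18rap had a difference of 0.17 without KO5. Over the 55 genes, the ratio was higher in all KO lungs for 3, lower for 33 and overlapping for 19, and Il5ra was the third of the higher ones at 1.22. The reference itself was higher by 0.95 in KO, so a gene of unchanged level has a lower ratio, as Il6st did (−0.91). The same share over all genes is not given, and the 33 are not read as a result about the interleukin genes.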

How the data were processed

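Whole-lung mRNA of 3 WT and 3 KO mice was sequenced after a stranded TruSeq preparation, with 1 library per mouse. The submitters' processing notes name Trimmomatic 0.36, STAR 2.5.3a, Picard 2.9.0, HTSeq 0.6.0 and GRCm38. The authors deposited whole read counts per Ensembl gene, without normalization, and these counts were the only values used, with no column left out. The annotation release and the strand setting of the counting are not given in the sources used here, so genes that overlap on opposite strands are reported as uncertain. Positions and exon lengths were taken from GENCODE mouse release M21, which matched 46488 of 47069 genes.

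Libraries were grouped by their labels and each was taken as 1 replicate, and p-values measure the spread between these 6 mice. KO was compared with WT in R 4.3.3 with the quasi-likelihood test of edgeR 4.0.16 (glmQLFit and glmQLFTest), with TMM factors, filterByExpr at its defaults (10 counts per library at the median depth, 15 in total) and no covariates, and p-values were adjusted by Benjamini-Hochberg across 17037 genes. A gene was called at an adjusted p of at most 0.05. The SE of a log2 fold change was taken as |log2 fold change| / √F. CPM values used TMM-scaled sizes, and 0.01 CPM was added before log2 ratios to the pan-leukocyte markers were formed. The fit was tested on simulated data before use.

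The interleukin genes, the lists of markers and pathway genes, and the tests were chosen with earlier results of these data known. Named genes were every called gene with its partner chains and ligands, the 5 genes of highest CPM per kb and the 5 largest estimates not called. The genes tied to type 2 and epithelial alarm signals were also named, with Il1b, Il6 and Il18. Other members are given as part of their family. Up to 4 genes of each list by adjusted p were to be named, but the text departs from this, above all for the marker lists. Same-numbered WT and KO libraries did not deviate together (correlations of −0.0316, −0.154 and −0.0210), and the numbers are not stated to mark a litter or day. Alternatives were DESeq2 1.42.0 size factors and test, upper-quartile factors, TMM factors without immunoglobulin genes, other filters, edgeR's exact test, the replicate number as a block, other leukocyte references, and each mouse left out in turn. Promoter windows were taken from RefSeq, and protein sequences were not used here. The result for 1 listed gene is not reported here. Figures were made with Python 3.11.15 and Matplotlib 3.10.9.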

Additional observations from a re-analysis of the deposited data

How the results depend on the processing

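The 6 called interleukin genes were the same ones with DESeq2 size factors, without immunoglobulin genes in the TMM factors, with at least 10 counts in 3 libraries and with at least 10 counts in every library, and upper-quartile factors added Il7r. The count of calls was 12 with DESeq2, 12 with edgeR's exact test and 10 with no filter, each holding all 6. In these fits 11.2%, 8.72% and 4.89% of all genes tested were called, against 6.39% in the fit used above. The count was 0 with the replicate number as a block, a fit in which 66 of all genes were called and pathway genes gave 1 call. With each mouse left out in turn it ran from 0 to 9. Genes past both thresholds numbered 1 with DESeq2 (Il5ra), 2 with edgeR's exact test (Il21 and Il5ra), 2 with no filter (Il21r and Il5ra) and 0 to 2 with a mouse left out. The shares of all genes past both thresholds in these fits are not given here. Pathway genes called numbered 15, and 0 to 15 with a mouse left out. The median log2 fold change ran from 0.25 to 0.36 with a mouse left out. The median ratio of the called genes to pan-leukocyte markers was −0.11, and ran from −0.22 to 0.03 with a mouse left out, and that of Il18rap ran from −0.23 to 0.17, both turning sign without KO5. The median ratio was −0.26 with Ptprc alone as the reference, and −0.19 to −0.07 with each marker left out of the reference. Of 417 single-gene values over 28 genes, 361 kept their direction and side of the threshold, 31 lost the threshold, 17 gained it and 8 changed sign. With a mouse left out, Il13ra1 ran from −0.03 to 0.24 (sign changed without KO4 and KO6), Il18r1 from −0.08 to 0.03 (without KO5 and WT5) and Il17re from −0.12 to 0.08 (without KO4, WT5 and WT6), and Il17re was −0.00 with no filter. The cause of these changes was not tested. The same-numbered libraries are not known to be pairs, so the block result is no measure of a weaker effect. With 3 mice a group, each of the 6 calls was lost in at least 4 of the 6 leave-one-out fits.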
